A study of Mus musculus with 7 samples.

Results

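The transcriptomes of mouse embryonic fibroblasts (MEFs) under ER stress and under oxidative stress were compared directly with each other, library against library, without passing through the control, to describe side by side a folding stress of the ER and one of the cytosol. Of the 7 RNA-seq libraries in the series, 2 were compared. Genes were kept where the mean over the 7 libraries was at least 2 TPM (each gene's share of a library, corrected for transcript length and scaled to a total of 1000000). Symbols that start with Gm, Mir, Snor or mt-T, or that carry -ps or -rs, were left out, and a symbol on several rows was counted once, which left 11547 of 49382 genes. At the edge of the limit, Ccdc125 was kept with a mean of 2.00 TPM (1.83 in ER stress and 1.40 in oxidative stress), and Kcnab2 was left out with a mean just under 2 TPM (0.886 and 1.499).

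The cells were primary wild-type fibroblasts from embryos of embryonic day 13.5 to 14.4, prepared without head and fetal liver and used at passages 3 to 7. ER stress was 1 μM thapsigargin for 10 h, and oxidative stress was 10 μM sodium arsenite for 3 h. The other 5 libraries were an untreated control, osmotic stress (100 mM NaCl, 3 h), hypoxia (0.1% oxygen, 10 h), and depletion of glucose or of glutamine (10 h each). Each condition had 1 library, so no difference could be set against the spread between cultures, no test was made and no p-value is given. The agent and the duration differ together in the direct comparison, and their parts in any difference cannot be told apart.

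Thapsigargin blocks SERCA, the pump that fills the ER with calcium, and proteins in the emptied ER fold poorly. The sensors IRE1, ATF6 and PERK respond with the unfolded protein response, in which IRE1 splices Xbp1 mRNA, ATF6 is cut to a transcription factor, and PERK phosphorylates eIF2α and favours translation of ATF4. Arsenite binds protein thiols. It damages proteins of the cytosol, which frees HSF1 to switch on heat shock genes, and it releases NRF2 from KEAP1, which switches on antioxidant genes. Phosphorylation of eIF2α and ATF4 form the integrated stress response, which several kinases can start from different compartments.

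The labels were checked against Hspa5 (BiP, the HSP70 of the ER) and Hspa1a (the inducible HSP70 of the cytosol). Hspa5 was at 1165 TPM in control, 1689 in glucose depletion, 943 in glutamine depletion, 1034 in osmotic stress, 12611 in ER stress, 784 in oxidative stress and 1224 in hypoxia. ER stress thus stood far above the other 6 libraries, and Hspa5 was the most abundant gene of that library with 1.26% of all its TPM, against 0.0784% in oxidative stress. Hspa1a was at 7.52, 3.95, 3.55, 51.4, 2.11, 273 and 5.10 TPM in the same order of libraries. Oxidative stress was the highest and ER stress the lowest of the 7. Hspa1a and Hspa1b are near-identical genes whose reads Kallisto may divide in either way, but oxidative stress was also the highest and ER stress the lowest in their sum, with 12.96 TPM in ER stress, 685 in oxidative stress, 314 in osmotic stress and 23.3 to 30.3 in the other 4.

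All 10 fibroblast markers passed the filter, with Col1a1 at 1740 TPM in ER stress and 2998 in oxidative stress and Vim at 1966 and 2958. Their summed level was 6459 TPM in ER stress, 12823 in oxidative stress and 14839 in control, and all 10 were lower in ER stress than in oxidative stress. Markers of other cell types were low. The 8 macrophage markers summed to 8.32 TPM in ER stress and 14.7 in oxidative stress, mostly from Cd68 (5.26 and 9.77 TPM), with Adgre1 and Itgam at 0 in both. The 6 endothelial markers summed to 4.47 and 4.08 TPM, and the 6 erythroid markers to 0.217 and 1.01. Skeletal muscle markers summed to 13.9 TPM in ER stress and 36.6 in oxidative stress, nearly all of it Des, and epithelial markers to 76.4 and 44.9, nearly all of it Krt19 and Krt18. Neural markers summed to 162 and 95.6 TPM, since Tubb3 was at 127 TPM in ER stress against 28.2, while Sox10 and Dcx were under 1 TPM in both. In RNA from whole cultures, fewer cells of a type and less RNA per cell cannot be told apart, and the part of these markers in the differences below was not tested.

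Over the 11547 genes, 1368 (11.8%) were higher in ER stress than in oxidative stress by more than 2-fold on the log2(TPM + 1) scale, and 950 (8.23%) were higher in oxidative stress. The remaining 9229 genes lay within 2-fold. This scale understates the difference of genes with low levels. The differences ran from -6.46 (Hspa1a) to 8.0 (Derl3), where positive values are higher in ER stress, and 50 genes were higher in ER stress and 31 in oxidative stress by more than 8-fold. The balance depended on the centring. The median difference over all kept genes was 0.18, and mitochondrially encoded genes took 5.09% of the TPM in ER stress and 9.25% in oxidative stress. As deposited, 59.0% of the differences beyond 2-fold were higher in ER stress. With the median set to 0 it was 40.9%, from 879 genes higher in ER stress and 1270 in oxidative stress. List medians below are to be read against this median of 0.18, and the counts with the median set to 0 are called centred. Counts of list members past 2-fold are to be read against 11.8% of all kept genes toward ER stress and 8.23% toward oxidative stress. Centred counts are to be read against 879 and 1270 of the 11547 genes instead.

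**Figure D1:**
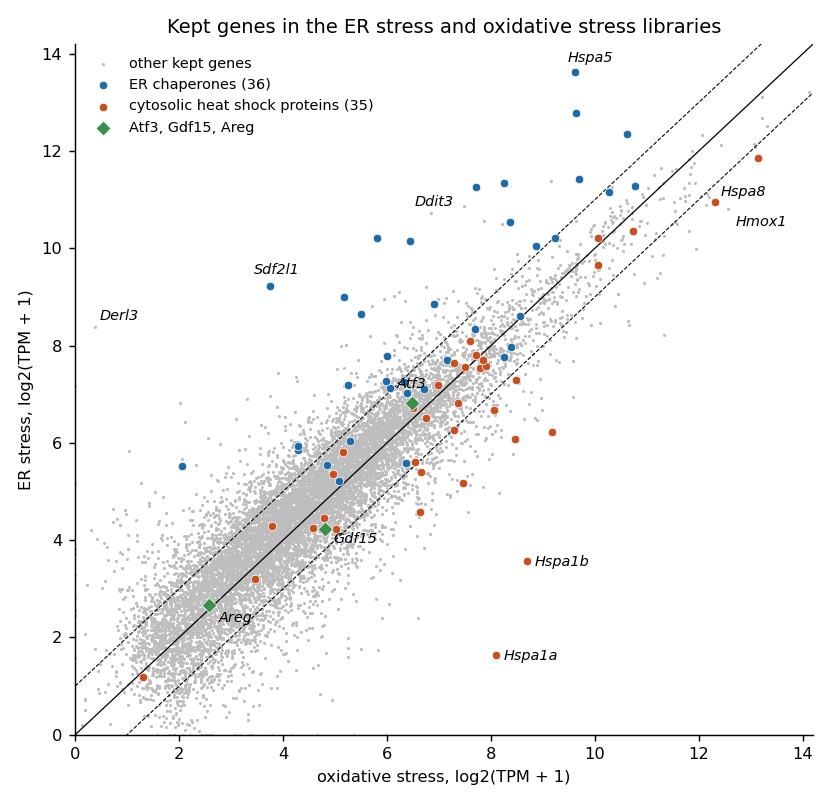
Level of each of the 11547 kept genes in oxidative stress (x axis) and ER stress (y axis), both in log2(TPM + 1), with 1 point per gene. The solid line marks equal levels and the dashed lines 2-fold differences. ER chaperones (blue) lie mostly above the upper dashed line, led by Hspa5, the leading heat shock proteins (orange) lie below the lower one, led by Hspa1a, and Atf3, Gdf15 and Areg (green) lie between the lines.

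Chaperones and oxidoreductases of the ER lumen were higher in ER stress. Of 36 listed genes, 36 were kept, 21 were higher in ER stress by more than 2-fold (20 centred) and 0 in oxidative stress, with a median difference of 1.43. Together they held 48259 TPM in ER stress, 11313 in oxidative stress and 14225 in control. Sdf2l1, a partner of BiP that hinders aggregation, was at 598 TPM in ER stress, 12.4 in oxidative stress and 12.1 to 60.8 in the other 5 libraries (difference 5.48). Creld2, a disulfide isomerase of the ER, was at 1193 and 55.4 TPM (4.41). Among the abundant members, Hsp90b1 (GRP94, the HSP90 of the ER) was at 7025 and 798 TPM (3.14), and Calr (calreticulin, a chaperone of glycoproteins) at 5242 and 1581 TPM (1.73). For 22 of the 36 genes oxidative stress was below all of the other 5 libraries, against 26.2% of all kept genes. Hspa5, Hsp90b1 and Calr were among the 22, and for these part of the difference came from the low side.

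The BiP cochaperones Dnajb9 (512 and 35.1 TPM), Dnajc3 (401 and 44.4) and Dnajb11 (459 and 119) and the nucleotide exchange factor Hyou1 (1140 and 85.6) were each higher in ER stress, and so was Manf (2609 and 304), a secreted ER protein that binds BiP. The disulfide isomerases were graded. Pdia4 differed by 3.54, Pdia6 by 2.17 and Pdia3 by 1.72, whereas P4hb, the most abundant isomerase in oxidative stress at 1231 TPM, differed by 0.88 and Pdia5 by 0.39. The oxidase Ero1lb was at 44.9 TPM in ER stress and between 3.16 and 7.21 in the other 6 libraries. Its paralog Ero1l was at 145 TPM in ER stress and 37.2 in oxidative stress, but at 327 in hypoxia. The prolyl isomerases Fkbp7, Fkbp9 and Fkbp10 were the members with negative differences, of -0.79, -0.50 and -0.41, and Serpinh1 (HSP47, which holds procollagen) had 0.51, at 2477 and 1744 TPM.

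The ER stress response element, to which ATF6 binds with NF-Y, was sought in the 250 bases before the RefSeq start of each gene, on both strands, as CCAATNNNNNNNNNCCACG (build GRCm38.p6). It was found in 35 of 27025 genes with a promoter in the table (0.13%). Among the ER chaperones, 31 had a promoter there and 8 of them (25.8%) held the element. All 8 were higher in ER stress by more than 2-fold, with a median of 3.14, and so were 11 of the 23 members without it, with a median of 0.98. Of the 1037 genes higher in ER stress by more than 2-fold that had a promoter, 11 (1.06%) held the element, against 0.0557% of the 7185 genes within 2-fold. All of the 11 but Alg12 and Zfp57 are members of the ER chaperone list or that of ER-associated degradation. The contrast thus largely repeats those lists and is no separate evidence. The matches are of letters and not sites of binding, and Sdf2l1, with the largest difference of the chaperone list, had none. The sequences of the members of the 2 lists that held the element are shown. Each is read 5′ to 3′ on the strand of its gene, with the element in capitals. Where it lies on the opposite strand, the capitals run from CGTGG to ATTGG.
Hspa5, chr2:34772010-34772058, plus strand: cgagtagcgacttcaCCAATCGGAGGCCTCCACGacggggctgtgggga
Hsp90b1, first element, chr10:86705623-86705671, minus strand: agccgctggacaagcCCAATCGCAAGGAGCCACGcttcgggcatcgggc
Hsp90b1, second element, chr10:86705518-86705566, minus strand: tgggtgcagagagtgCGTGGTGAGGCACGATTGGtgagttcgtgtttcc
Creld2, chr15:88819505-88819553, plus strand: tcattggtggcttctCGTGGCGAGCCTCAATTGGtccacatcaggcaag
Ero1b (Ero1lb in the deposited table), chr13:12565667-12565715, plus strand: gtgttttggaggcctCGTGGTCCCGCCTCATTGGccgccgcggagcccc
Dnajc3, chr14:118937812-118937860, plus strand: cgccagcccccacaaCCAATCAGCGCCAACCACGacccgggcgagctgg
Pdia6, chr12:17266476-17266524, plus strand: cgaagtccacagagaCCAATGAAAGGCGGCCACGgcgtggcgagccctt
Calr, chr8:84847060-84847108, minus strand: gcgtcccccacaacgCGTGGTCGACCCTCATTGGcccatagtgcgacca
Canx, chr11:50325785-50325833, minus strand: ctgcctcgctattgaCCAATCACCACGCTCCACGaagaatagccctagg
Derl3, chr10:75893227-75893275, plus strand: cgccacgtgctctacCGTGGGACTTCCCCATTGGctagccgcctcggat
Syvn1, chr19:6046517-6046565, plus strand: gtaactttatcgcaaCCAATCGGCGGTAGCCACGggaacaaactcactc

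In Hspa5 the element began 65 bases before the RefSeq start, and in the other genes between 44 (Syvn1) and 212 (Hsp90b1) bases before it. The GENCODE M21 model of Hspa5 (chr2:34771970-34777547) begins upstream of its element, so that by this annotation the element is inside the transcribed region. Derl3 and Syvn1 belong to ER-associated degradation and were the 2 members with the element among the 31 of that list with a promoter.

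Genes of ER-associated degradation and of entry into and export from the ER were also higher in ER stress, 22 of 41 kept genes by more than 2-fold (17 centred) and 0 in the other direction, with a median of 1.05. Derl3, a derlin of the retrotranslocation channel, had the largest difference of any kept gene. It was at 1.65 TPM in control, 3.64 in glucose depletion, 0.372 in glutamine depletion, 3.06 in osmotic stress, 331 in ER stress, 0.30 in oxidative stress and 1.52 in hypoxia. It was thus high in 1 library and at most 3.64 TPM in the rest. It passed the filter only through that library, which fixed the direction of its difference. Its paralogs moved less, with Derl1 at 183 and 62.9 TPM and Derl2 at 103 and 41.1. Herpud1 (1698 and 115 TPM), the ligase Syvn1 (258 and 36.2) and its adaptor Sel1l (497 and 60.2) belong to 1 ubiquitin ligase complex of the ER membrane and differed by 3.88, 2.80 and 3.02. The translocon subunit Sec61a1 differed by 1.35 and Sec61b by 0.41, the COPII coat proteins Sec23b by 1.68 and Sec31a by 0.46, and the ATPase Vcp, which pulls proteins from the membrane, by 0.84. Erlec1 (-0.12) and Kdelr1 (-0.07) were the members with negative values.

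The sensors and their factors had a lower median than the chaperones. Of 13 listed genes 12 were kept, and 4 were higher in ER stress by more than 2-fold, also centred, with a median of 0.75. This share of 33.3% stands beside 11.8% of all kept genes. Atf6 was at 91.2 TPM in ER stress, 21.6 in oxidative stress and 17.9 to 26.5 in the other 5 libraries (difference 2.03). Xbp1 was at 239 and 92.7 TPM (1.36), Ern1, which encodes IRE1, at 21.4 and 11.2 (0.88), and Eif2ak3, which encodes PERK, at 47.9 and 29.6 (0.67). Wfs1, a membrane protein of the ER, had the largest difference of the list at 98.2 and 17.9 TPM (2.39). The splicing of Xbp1 cannot be read from values summed over transcripts.

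Regulators of the integrated stress response were higher in ER stress in 9 of 19 kept genes (6 centred) and in oxidative stress in 0, with a median of 0.86. Ddit3 (CHOP, a transcription factor tied to cell death) was at 1870 TPM in ER stress, 177 in oxidative stress and 48.9 to 208 in the other 5 libraries. ER stress stood apart, and oxidative stress lay within the others. Ppp1r15a (GADD34, which restores translation) was at 514 and 68.9 TPM (difference 2.88), and Trib3, a pseudokinase that binds ATF4, at 184 and 34.9 (2.37). Atf4 itself was at 773 and 424 TPM (0.86) and Chac1, which degrades glutathione, at 224 and 69.7 (1.67). Members of the same list that were close to each other in the 2 libraries were Cebpb (46.2 and 44.7 TPM), Ddit4 (52.5 and 50.6) and Atf3, described further below. The kinases Eif2ak4 (GCN2) and Eif2ak2 (PKR) had differences of -0.67 and -0.50.

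Enzymes and transporters of amino acids are known targets of ATF4. Of 20 kept genes, 16 were higher in ER stress by more than 2-fold (13 centred) and 0 in oxidative stress, and the median of 1.69 was the highest of the 21 lists. Cth, the last enzyme of cysteine synthesis, was at 118 TPM in ER stress and 8.84 in oxidative stress (difference 3.60). The glycine transporter Slc6a9 was at 155 and 18.4 TPM (3.01), the heavy chain Slc3a2 at 1454 and 298 (2.29), and its partner Slc7a5 at 332 and 89.3 (1.88). The other partner of Slc3a2, the cystine transporter Slc7a11, was nearly level at 18.5 and 15.7 TPM, both above the 2.54 to 5.11 TPM of the other 5 libraries. Slc38a2, a transporter of neutral amino acids, was level at 135 and 130 TPM, under the 478 TPM of osmotic stress. Asns (asparagine synthetase) was at 317 and 109 TPM and Psat1, of serine synthesis, at 425 and 197.

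Cytosolic aminoacyl-tRNA synthetases, which load tRNAs, were higher in ER stress in 11 of 20 genes (10 centred), with a median of 1.13 and 0 in the other direction. Wars was at 292 TPM in ER stress and 48.1 to 61.7 in the other 6 libraries (difference 2.52), and Nars, the most abundant, at 672 and 275 (1.29). Mars was the exception at 43.5 and 51.5 TPM, the lowest of the 7 libraries in ER stress.

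The core of the amino acid response element, TGATGNAA, to which ATF4 binds with a C/EBP partner, was sought in the same promoters. It was found in 1056 of 27025 genes (3.91%). It was in 3 of 17 integrated stress response genes with a promoter (17.6%), 4 of 16 amino acid genes (25%) and 3 of 13 tRNA synthetase genes (23.1%). Among kept genes with a promoter it was in 3.38% of those higher in ER stress by more than 2-fold. It was in 3.64% of those higher in oxidative stress and in 1.98% of those within 2-fold, so it did not separate the 2 directions. Presence did not go with the larger differences in the amino acid list, where the 4 genes with it had a median of 1.22 and the 11 kept genes without it 1.61. Among the integrated stress response genes the 3 with it had a median of 1.08 and the 14 without it 0.79. The sequences of genes that differed are set beside those of Atf3 and Slc7a11, which were near level, with the core in capitals and its reverse complement where it lies on the opposite strand.
Asns, chr6:7693210-7693247, minus strand: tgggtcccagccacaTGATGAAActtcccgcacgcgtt
Chac1, chr2:119351034-119351071, plus strand: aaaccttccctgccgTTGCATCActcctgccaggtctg
Got1, chr19:43524685-43524722, minus strand: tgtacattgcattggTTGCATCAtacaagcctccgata
Nupr1, chr7:126625558-126625595, minus strand: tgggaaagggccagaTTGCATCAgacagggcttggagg
Atf3, chr1:191183421-191183458, minus strand: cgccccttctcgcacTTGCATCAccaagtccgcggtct
Slc7a11, first core, chr3:50443657-50443694, minus strand: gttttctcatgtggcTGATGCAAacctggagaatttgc
Slc7a11, second core, chr3:50443638-50443675, minus strand: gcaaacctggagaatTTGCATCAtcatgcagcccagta

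**Figure D2:**
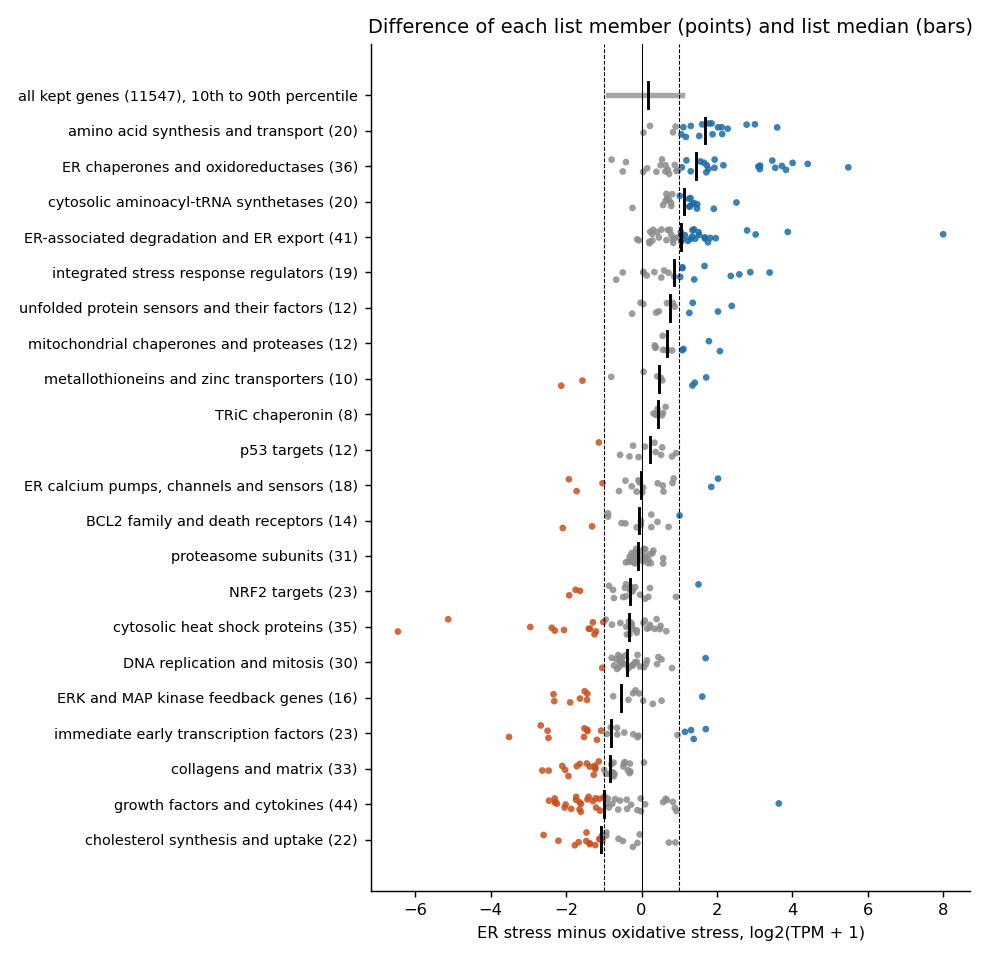
Difference between ER stress and oxidative stress in log2(TPM + 1) (x axis) for the kept members of 21 gene lists (rows, number of kept members in parentheses). Points are genes, blue above 1, orange below -1 and grey between, black bars are list medians, and the top row gives the median and the 10th to 90th percentile of all 11547 kept genes. Medians run from -1.07 for cholesterol synthesis to 1.69 for amino acid genes.

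Heat shock proteins of the cytosol went the other way, with a part of the list past 2-fold. Of 35 kept genes (36 listed), 12 were higher in oxidative stress by more than 2-fold (13 centred) and 0 in ER stress, and the median was -0.34. Oxidative stress was above the other 5 libraries for 23 of the 35, against 9.69% of all kept genes. ER stress was above them for 12 and below them for 12, against 35.7% and 27.5% of all kept genes. The ER stress counts thus lie close to those of all genes. After Hspa1a, the largest differences were those of Hspa1b at 10.8 TPM in ER stress and 413 in oxidative stress (-5.13), the small heat shock protein Hspb1 at 74.1 and 580 (-2.95), and Cryab, another of that family, at 66.4 and 350 (-2.38). In each of these ER stress was the lowest of the 7 libraries. Osmotic stress, also of 3 h, had 263 TPM of Hspa1b and 378 TPM of Cryab, the latter above oxidative stress.

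The HSP40 cochaperones Dnajb4 (35.0 and 176 TPM), Dnajb1 (22.8 and 98.0) and Dnaja1 (155 and 359) were lower in ER stress by more than 2-fold, as were the exchange factor Hsph1 (101 and 267) and Bag3, which links HSP70 to autophagy (76.0 and 155). The abundant constitutive HSP70, Hspa8, was at 1983 TPM in ER stress, 5102 in oxidative stress and 2141 to 2907 in the other 5 libraries. The HSP90 genes Hsp90aa1 (808 and 1071 TPM) and Hsp90ab1 (1303 and 1707) lay within 2-fold, and the factors Hsf1 (0.66) and Hsf2 (0.50) had positive values.

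The 3-unit heat shock element GAANNTTCNNGAA was in 1 of the 29 heat shock promoters in the table, that of Dnajb6, and in 0.514% of all genes. It was also in those of the mitochondrial chaperonin pair Hspd1 and Hspe1. A shorter form of 2 units, GAANNTTC or TTCNNGAA, was added after these promoters had been seen and is part of every 3-unit match. It was in 11 of the 29 (37.9%) and in 14.5% of all genes. Of the 11 kept genes with it 6 were higher in oxidative stress by more than 2-fold, and of the 17 without it 3. Over all kept genes with a promoter it was no more frequent among those higher in oxidative stress by more than 2-fold (82 of 686) than among those within 2-fold (873 of 7185, or 12.2%), and the 3-unit form was in 0.146% and 0.473%. The sequences of those 6 genes are given because they include the gene with the largest difference in this direction. The Hspa1a and Hspa1b windows are the same letter for letter, as the genes themselves nearly are. Capitals mark the 2 units with the bases between them.
Hspa1a, chr17:34972238-34972275, minus strand: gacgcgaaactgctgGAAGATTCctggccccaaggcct
Hspa1b, chr17:34959320-34959357, minus strand: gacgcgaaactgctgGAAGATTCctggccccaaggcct
Hspb1, first pair, chr5:135887787-135887824, plus strand: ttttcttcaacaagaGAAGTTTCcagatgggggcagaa
Hspb1, second pair, chr5:135887807-135887844, plus strand: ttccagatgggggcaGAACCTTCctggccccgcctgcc
Dnaja1, chr4:40722329-40722366, plus strand: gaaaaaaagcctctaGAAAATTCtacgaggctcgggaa
Dnajb4, chr3:152193846-152193874, minus strand: ttcgttcgttcgctgTTCTAGAAagtaca
Hsph1, chr5:149636347-149636384, minus strand: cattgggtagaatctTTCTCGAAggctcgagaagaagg

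The 8 subunits of TRiC, the chaperonin that folds actin and tubulin, had differences between 0.32 and 0.64, with 0 past 2-fold. The 31 proteasome subunits were between -0.42 and 0.57 with a median of -0.11, and 0 passed 2-fold. Mitochondrial chaperones and proteases lay on the ER stress side, with 4 of 12 genes (33.3%, against 11.8% of all kept genes) past 2-fold (2 centred), 0 in the opposite direction and a median of 0.67. They were led by the HSP40 Dnaja3 (100 and 23.0 TPM, difference 2.08) and the protease Lonp1 (204 and 58.5, 1.79). Hspa9, the HSP70 of mitochondria, was at 914 and 423 TPM (1.11). Thus the 3 compartmental HSP70 genes Hspa5, Hspa9 and Hspa8 had differences of 4.01, 1.11 and -1.36.

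NRF2 targets mostly lay within 2-fold, with 18 of 23 differences negative. Oxidative stress was above the other 5 libraries for 16 of them and below for 0, against 9.69% and 26.2% of all kept genes. ER stress was above for 12 and below for 3, against 35.7% and 27.5%. Of 23 kept genes 3 were higher in oxidative stress by more than 2-fold (4 centred) and 1 in ER stress, with a median of -0.30. Hmox1 (heme oxygenase) was at 266 TPM in control, 217 in glucose depletion, 265 in glutamine depletion, 256 in osmotic stress, 1802 in ER stress, 6055 in oxidative stress and 497 in hypoxia. Both stresses were above the other 5 libraries, and oxidative stress was higher by 1.75 on the log2 scale. The sulfiredoxin Srxn1 was at 76.1 TPM in ER stress, 291 in oxidative stress and 119 in glutamine depletion, and Osgin1 at 5.34 and 18.6. The glutathione synthesis subunits Gclm (135 and 228 TPM) and Gclc (43.9 and 59.99), and the thioredoxin reductase Txnrd1 (617 and 634), lay within 2-fold, each with both libraries above the other 5. The autophagy receptor Sqstm1 (p62) was at 1507 TPM in ER stress and 801 in oxidative stress (0.91), and the exporter Abcc4 at 21.3 and 6.82 (1.51). The antioxidant response element core TGANNNNGC was in 11 of 18 of these promoters (61.1%), but also in 38.7% of all genes.

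Metallothioneins bind arsenic and zinc. Mt1 was at 362 TPM in ER stress, 1585 in oxidative stress and 1085 in hypoxia, and Mt2 at 449, 1333 and 659, so that ER stress was the lowest of these 3. Of the zinc transporters, 3 went the other way. Slc39a10 was at 25.4 and 7.07 TPM, Slc30a5, which loads the secretory pathway, at 85.3 and 31.4, and Slc39a14 at 92.6 and 35.8, each higher in ER stress by more than 2-fold. In the list of 10, 3 were higher in ER stress and 2 in oxidative stress, with a median of 0.46.

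Atf3, Gdf15 and Areg were chosen because earlier results had shown them high in both libraries, so their levels are a description. Atf3, a transcription factor of the stress response, was at 3.02 TPM in control, 3.14 in glucose depletion, 21.3 in glutamine depletion, 13.2 in osmotic stress, 112 in ER stress, 88.3 in oxidative stress and 5.95 in hypoxia. Gdf15, a secreted stress cytokine of the TGF-β family, was at 7.03, 4.27, 5.64, 9.69, 17.9, 27.0 and 5.83 TPM in that order, and Areg (amphiregulin, a ligand of the EGF receptor) at 0.532, 0.617, 3.15, 1.07, 5.33, 4.93 and 0.448. For each of the 3 genes the thapsigargin and arsenite libraries were the highest of the 7. Their direct differences were 0.34 for Atf3, -0.57 for Gdf15 and 0.10 for Areg, within 2-fold, and the order of the 2 stresses was not the same for the 3 genes. Areg stayed low in both, and glutamine depletion came near to them. As the libraries have no replicates, it cannot be said whether the levels of the 2 stresses differ. Bmp4, a morphogen of the TGF-β family, was level on the low side, at 15.5 and 15.7 TPM against 36.4 to 75.3 in the other 5.

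**Figure D3:**
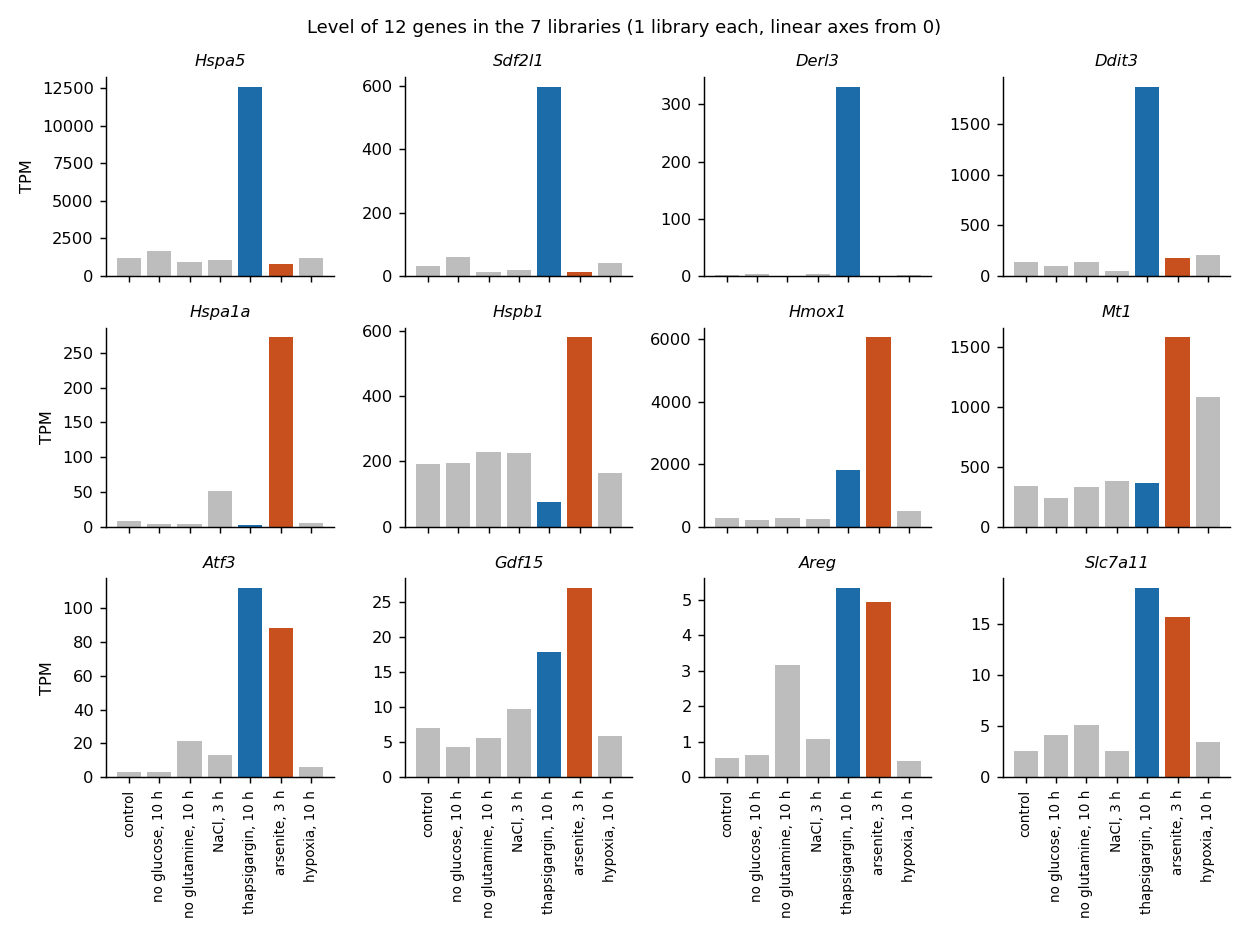
TPM (y axes, linear from 0, a scale of its own in each panel) of 12 genes in the 7 libraries (x axis, 1 library each), with thapsigargin in blue, arsenite in orange and the other libraries in grey. Hspa5, Sdf2l1, Derl3 and Ddit3 are high in thapsigargin alone among the 7, Hspa1a, Hspb1, Hmox1 and Mt1 are highest in arsenite, and Atf3, Gdf15, Areg and Slc7a11 are highest in the pair of them.

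Immediate early transcription factors, which answer growth signals within minutes, were mostly higher in oxidative stress, the shorter treatment. Of 23 kept genes 10 were higher in oxidative stress by more than 2-fold (11 centred) and 4 in ER stress (3 centred), with a median of -0.82. Nr4a1, an orphan nuclear receptor, was at 4.28 TPM in ER stress, 59.3 in oxidative stress and 79.9 in glutamine depletion (difference -3.51). The AP-1 subunits Fosb (0.383 and 6.77 TPM), Fos (4.51 and 13.99), Jun (39.9 and 109) and Junb (43.7 and 127) were each lowest in ER stress among the 7 libraries, whereas Fosl1 was near level at 115 and 134. Members higher in ER stress were Nr4a2 (32.2 and 9.20), Myc (265 and 106), Mafk (61.8 and 27.3) and Klf2 (17.2 and 5.99). Of 16 kept ERK and MAP kinase feedback genes, 7 were higher in oxidative stress and 1 in ER stress, with a median of -0.55. The phosphatase Dusp1 was at 31.2 and 161 TPM, Dusp10, which acts on JNK and p38, at 10.1 and 54.4, and the ERK inhibitor Spry1 at 22.7 and 6.78. Arc, an immediate early gene outside these lists, was at 2.35 and 55.6 TPM.

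Growth factors and cytokines were mostly lower in ER stress. Of 44 kept genes (48 listed), 22 were higher in oxidative stress by more than 2-fold (26 centred) and 1 in ER stress, with a median of -0.996. In the order control, ER stress and oxidative stress, some stood furthest above the control in oxidative stress, such as the IL-6 family cytokines Il11 (2.86, 4.35 and 21.01 TPM) and Lif (9.74, 18.3 and 59.3), and Hbegf (60.2, 82.1 and 275), another ligand of the EGF receptor. Others were close to the control in oxidative stress and lowest of the 7 in ER stress. These included Ogn (211, 34.2 and 191 TPM), Tgfb3 (255, 39.9 and 198) and Tgfb2 (23.1, 6.73 and 22.6).

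Inhba, a subunit of activin A, was at 199, 101 and 504 TPM, and Ctgf, which responds to YAP1 and TGF-β, at 1177, 628 and 1961. Fgf21, a secreted hormone of the FGF family, was the single one higher in ER stress by more than 2-fold, at 0.528, 19.6 and 0.654 TPM. It was at most 1.78 TPM in every library but ER stress. It passed the filter only through ER stress, which fixed the direction of its difference. Csf1, the growth factor that macrophages need, was near level at 377, 399 and 483 TPM, as was Pdgfc at 38.2, 37.4 and 49.4. Vegfa was above the control in both, at 78.6, 170 and 322 TPM (difference -0.92). Ereg, of the same family as Areg, was at 16.2, 43.5 and 86.8 TPM (-0.98).

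**Figure D4:**
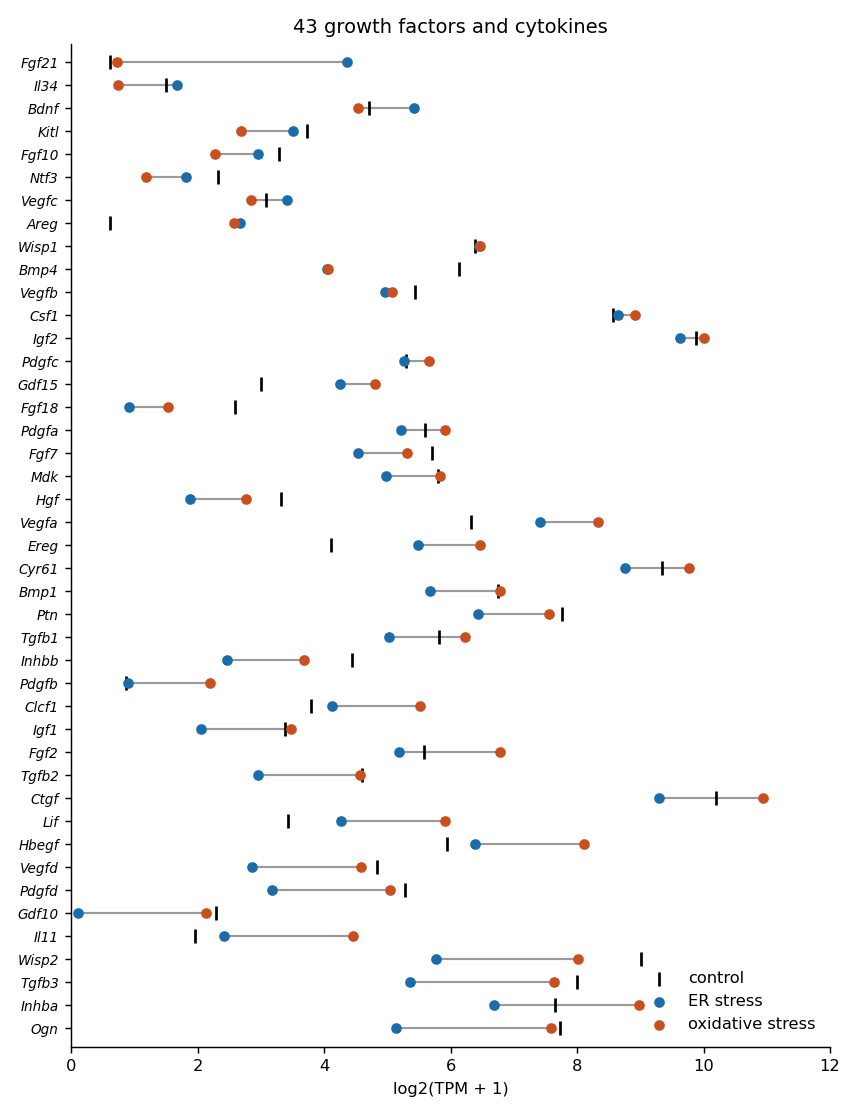
Level in log2(TPM + 1) (x axis) of 43 of the 44 growth factors and cytokines (rows, ordered by the difference between ER stress and oxidative stress) in control (black ticks), ER stress (blue) and oxidative stress (orange), 1 library each. The orange point lies more than 1 unit to the right of the blue one for 21 of the genes shown, and the blue one by as much to the right of the orange for 1 gene, Fgf21.

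Genes of the collagen matrix were lower in ER stress than in oxidative stress in 32 of 33 cases. Of 33 kept genes, 14 were higher in oxidative stress by more than 2-fold (17 centred), 0 in ER stress, and the median was -0.84. ER stress was below all of the other 5 libraries for 32 of the 33, against 27.5% of all kept genes. Oxidative stress was below them for 8, a share near the 26.2% of all kept genes. Col3a1 was at 352 TPM in ER stress and 1098 in oxidative stress, Thbs1 at 1305 and 3572, Timp3, an inhibitor of metalloproteinases, at 122 and 763, and Col6a1 at 121 and 496. Col1a2 differed by -0.48, and Col5a2 was level at 832 and 796. The calcium-binding S100a4, a marker of fibroblasts, was at 296 TPM in ER stress and between 2585 and 3685 in the other 6 libraries.

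Of 22 genes of cholesterol metabolism, 13 were higher in oxidative stress (15 centred) and 0 in ER stress, with a median of -1.07. Oxidative stress was above the other 5 libraries for 17 of the 22, against 9.69% of all kept genes. ER stress was below them for 6 and above them for 5, against 27.5% and 35.7% of all kept genes, and so was not low for this list in particular. Hsd17b7 was at 18.9 TPM in ER stress, 120 in oxidative stress and 54.5 in control, and Idi1, an isomerase of isoprenoid precursors, was at 30.1, 142 and 61.2. Mvd (61.8 and 32.7 TPM) and Ebp (43.3 and 25.8) were the members with positive differences.

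Among the ER calcium genes 2 of 18 kept members (11.1%) were higher in ER stress by more than 2-fold, a share near the 11.8% of all kept genes, and 3 (16.7%, against 8.23%) in oxidative stress. Atp2a2, which encodes SERCA2, the pump that thapsigargin blocks, was at 555 TPM in ER stress, 153 in oxidative stress and 121 to 173 in the other 5 libraries (difference 1.85). The calcium-binding Nucb2 was at 295 and 71.5 TPM (2.03). The store sensor Stim2 was at 6.51 and 23.8 TPM (-1.72), Stim1 at 9.85 and 15.4 (-0.60), and the plasma membrane pump Atp2b4 at 2.59 and 12.7 (-1.93), each lowest of the 7 libraries in ER stress.

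Lists of growth and death differed little. Of 30 genes of DNA replication and mitosis 1 (3.33%) was past 2-fold in each direction, against 11.8% and 8.23% of all kept genes. The median was -0.39, but in both libraries many were low. ER stress was below the other 5 for 22 genes and oxidative stress for 15, against 27.5% and 26.2% of all kept genes. Cdk1 was at 89.0 and 128 TPM against 145 to 211 in the other 5. Of 14 kept BCL2 family and death receptor genes 1 was higher in ER stress (0 centred) and 2 in oxidative stress (4 centred). These shares of 7.14% and 14.3% stand beside 11.8% and 8.23% of all kept genes. The BH3 protein Bid was at 54.4 and 26.6 TPM, the family member Bok at 5.90 and 28.4, and the death receptor Fas at 4.40 and 12.4. Among 12 targets of p53, 1 was past 2-fold, a share of 8.33% near the 8.23% of all kept genes. This was Btg2 at 47.9 and 106 TPM, and Cdkn1a was level at 355 and 333.

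The 10 genes with the largest difference in each direction held several outside these lists. Toward ER stress these were Car6, a secreted carbonic anhydrase (113 and 3.07 TPM), Fam174b (56.2 and 1.06), the sugar transporter Slc2a6 (85.7 and 3.34) and the matrix link protein Hapln4 (24 and 0.652). Hapln4 was at most 1.36 TPM in every library but ER stress and passed the filter only through it. Toward oxidative stress these were Nrep (0.643 and 29.6 TPM), the plasminogen activator Plau (4.29 and 96.5), Arc, an immediate early gene (2.35 and 55.6), and 1810011O10Rik (0.778 and 25.2). In Nrep and Plau ER stress was the low one, since the other 5 libraries had 18.7 to 26.2 TPM of Nrep and 46.1 to 159 TPM of Plau. The remaining ones outside the lists were listed at 0 in 1 of the 2 libraries. CAAA01205117.1 (143 TPM in ER stress) and Rnu73b (35.2) were listed at 0 in oxidative stress, and AC245272.5 (61.9 in oxidative stress), CAAA01205117.2 (40.1), Trbj2-3 (24.1) and Scarna3a (16.7) at 0 in ER stress. Scarna3a was listed at 0 in every library but oxidative stress and passed the filter only through it. A listed 0 in a file without counts may be a failed estimate.

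The place of the 2 libraries among the other 5 was described for the genes past 2-fold. These genes were chosen by the difference between the 2 libraries, which by itself raises the shares outside the range of the others. Of the 1368 genes higher in ER stress, ER stress was above the other 5 in 1249 (91.3%), and oxidative stress was below them in 530 (38.7%). Over all kept genes these shares were 35.7% and 26.2%. Of the 950 genes higher in oxidative stress, oxidative stress was above the other 5 in 208 (21.9%) and ER stress was below them in 823 (86.6%), against 9.69% and 27.5% of all kept genes. In both directions it was more often the ER stress library that stood outside the range of the others. The ER stress library also did so more often over all kept genes, above in 35.7% against 9.69% and below in 27.5% against 26.2%. The libraries of 10 h numbered 4 and those of 3 h 2. All 4 of the former were above both of the latter for 439 of the 1368 genes (32.1%, against 13.8% of all kept genes), and below both for 121 of the 950 (12.7%, against 4.001%). For those genes the level followed duration in all 6 stress libraries. The choice of genes by these 2 libraries, of 10 h and of 3 h, favours that order by itself, so no effect of duration can be read from it.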

How the data were processed

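RNA was sequenced from 7 MEF cultures, 1 per condition, as stranded paired reads. The authors quantified the reads with Kallisto 0.43.1 at default settings against the GRCm38 cDNA of Ensembl, added up the transcripts of a gene, and deposited TPM per gene. Default settings make no use of strand, so overlapping antisense genes cannot be told apart. TPM holds no read count, so the depth of the libraries, and with it the counting error, is unknown. Columns were assigned to conditions by their labels.

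Differences were taken as log2(TPM + 1) in ER stress minus oxidative stress, with the pseudocount of 1 TPM and the limit of 2-fold that the study used. There was no test. The 21 gene lists and 7 marker lists were written, and the members chosen, with earlier results of these data known. The named genes were Hspa5, Hspa1a, Atf3, Gdf15 and Areg, the 10 largest differences in each direction, up to 4 members per list and direction, the most abundant members, and others where a sentence on a group needed an exception. S100a4, Cdk1, Pdgfc, Csf1, Vegfa and other members beyond these limits were chosen after their values were seen. Alternatives were other pseudocounts, expression filters, fold thresholds, symbol filters and scalings, and protein-coding genes alone. Gene positions and types came from GENCODE M21, and promoters from RefSeq (GRCm38.p6), of which the 250 bases before each start were searched. Several listed genes, Hyou1, Manf, Hspa8 and Hmox1 among them, were not in the promoter table. The levels of a few list members are not reported here. The steps were tested on simulated data. Computation was done in Python 3.11.15 with numpy 2.4.6 and pandas 2.3.3, and plots with matplotlib 3.10.9.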

Additional observations from a re-analysis of the deposited data

How the results depend on the processing

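Of the 168 list medians recomputed under the alternatives, none moved by more than 1.5-fold, and none of the 21 lists changed the sign of its median. The 52 shares of genes in which a library lay outside the range of the other 5 also stayed within 1.5 times of the reported ones. The counts of genes depended on the settings. The number higher in ER stress by more than 2-fold, 1368 as reported, was 801 with a pseudocount of 5 TPM, 904 with a mean of at least 10 TPM, 879 after centring on the median, 3150 at 1.5-fold and 386 at 3-fold. The number higher in oxidative stress, 950 as reported, was 495 with a pseudocount of 5 TPM, 611 with a mean of at least 10 TPM, 1873 at 1.5-fold and 322 at 3-fold, and was 1270 after centring. Removal of the mitochondrially encoded genes gave 1219 and 1052. Of 784 values of named genes under the alternatives, 37 moved by more than 1.5-fold, all of them with another pseudocount, and none past 2-fold changed sign. No paired analysis was possible because each condition had 1 library, and for the same reason no replicate could be left out. The differences describe 2 libraries and not the conditions. Agent and duration cannot be told apart, and low genes such as Areg, Fosb or Osgin1 rest on an unknown number of reads.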
